A study of Mus musculus with 12 samples.

Results

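The 9 genes described here encode receptors with which macrophages take up or sense material outside the cell: the scavenger receptors Msr1 and Mrc1, the anaphylatoxin receptors C3ar1 and C5ar1, Trem2 and its signalling adaptor Tyrobp, and the C-type lectins Clec4d, Clec4e and Clec7a. They were chosen by gene symbol, and all 9 were found among the 12483 genes of the deposited count table. Transcripts were counted in 12 RNA-seq libraries of RAW264.7, a virus-transformed mouse macrophage line. Knockout (KO) clones 1A, 1B and 2 carry a deletion of NRE1, an element or gene that the labels name without expanding, and were set against wild-type (WT) clones 1, 2 and 3. Per the labels' protocols, the deletion was made with a pair of CRISPR constructs against its flanks, cells holding both were picked by GFP and puromycin markers, and clones were grown from single cells and tested for the deletion.

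Each clone gave 1 library after 6 h with LPS at 10 ng/mL and IFN-gamma at 50 ng/mL and 1 library from medium alone. The 4 groups were therefore KO with LPS/IFN-gamma, KO in medium, WT with LPS/IFN-gamma and WT in medium, with 3 libraries each. LPS is a bacterial lipid that triggers Toll-like receptor 4, and IFN-gamma is a lymphocyte cytokine that primes macrophages. How clone 1A relates to clone 1B is not stated in the labels, nor is it stated whether the WT clones went through the same CRISPR steps. No gene of the table is named NRE1, so the deletion itself was not read here.

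Scavenger receptors bind modified lipoproteins, glycans and microbial surfaces and carry them into the cell. Complement fragments C3a and C5a signal through G protein-coupled receptors that steer migration and secretion. TREM2 binds lipids and lipoproteins but has no signalling tail of its own; it works through TYROBP (DAP12), whose ITAM motif recruits the kinase SYK. The lectins Mincle (Clec4e), MCL (Clec4d) and Dectin-1 (Clec7a) recognise fungal and mycobacterial glycans and also feed into SYK and CARD9, Mincle and MCL through the adaptor Fc receptor gamma chain and Dectin-1 through a motif in its own tail.

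Clec4d and Clec4e are neighbours on chromosome 6, at 123262111 to 123275265 on the plus strand and 123281789 to 123289870 on the minus strand in GENCODE M21 (GRCm38), 6523 bases apart. Clec7a, at 129461591 to 129472779, lies on the same chromosome, as does C3ar1, at 122847138 to 122856161. Msr1 lies on chromosome 8, at 39581685 to 39642673, and Mrc1 on chromosome 2, at 14229392 to 14332057. C5ar1 and Tyrobp lie on chromosome 7, at 16246743 to 16259540 and 30413760 to 30417585, and Trem2 on chromosome 17, at 48346401 to 48354147. No member shares exon bases with another annotated gene, and the annotation lists Clec7a as a polymorphic pseudogene rather than as protein coding.

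Of the 9 members, 7 had a window in the RefSeq promoter table (GRCm38.p6), and Msr1 and Tyrobp had none. The 250 bases before the start site are printed for 4 genes: the neighbouring lectins, because their transcripts moved unequally, and Mrc1 and Trem2, because they moved in opposite directions under stimulation. Capitals mark matches, on either strand, to TTNNGNAA (C/EBP), GAGGAA (PU.1) and TGANTCA (AP-1). The windows are Clec4e (chr6:123289872-123290121, minus strand), Clec4d (chr6:123261857-123262106, plus strand), Mrc1 (chr2:14229164-14229413, plus strand) and Trem2 (chr17:48346151-48346400, plus strand), each read 5′ to 3′ along its gene.
Clec4e: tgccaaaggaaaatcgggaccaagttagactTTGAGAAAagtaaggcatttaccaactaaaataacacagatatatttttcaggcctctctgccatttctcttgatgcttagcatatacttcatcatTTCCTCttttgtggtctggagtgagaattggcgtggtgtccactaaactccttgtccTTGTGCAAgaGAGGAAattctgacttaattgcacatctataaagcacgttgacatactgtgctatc
Clec4d: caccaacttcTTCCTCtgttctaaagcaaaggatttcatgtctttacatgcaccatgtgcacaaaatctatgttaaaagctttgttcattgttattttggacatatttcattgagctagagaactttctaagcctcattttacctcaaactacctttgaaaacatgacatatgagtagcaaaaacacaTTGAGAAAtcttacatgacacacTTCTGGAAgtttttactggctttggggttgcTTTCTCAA
Mrc1: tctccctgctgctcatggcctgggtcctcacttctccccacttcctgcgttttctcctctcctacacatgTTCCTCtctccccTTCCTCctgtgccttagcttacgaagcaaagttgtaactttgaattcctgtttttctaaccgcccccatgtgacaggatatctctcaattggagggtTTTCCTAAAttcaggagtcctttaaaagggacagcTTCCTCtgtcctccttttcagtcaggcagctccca
Trem2: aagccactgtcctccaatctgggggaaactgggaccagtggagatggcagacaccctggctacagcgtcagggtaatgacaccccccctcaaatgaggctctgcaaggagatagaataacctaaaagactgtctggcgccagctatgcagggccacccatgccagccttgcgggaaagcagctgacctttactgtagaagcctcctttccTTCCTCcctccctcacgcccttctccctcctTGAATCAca
In Mrc1, 2 C/EBP matches overlap in 1 capital run. Among all 32851 windows of this length, 36.8% hold a C/EBP match, 23.3% a PU.1 match and 6.75% an AP-1 match, so the first 2 are common by their letters alone. The NF-kB consensus, present in 3.9% of windows, the ISRE/IRF motif of 2 GAAA runs set 2 bases apart, in 2.98%, and TTCNNNGAA (GAS), in 7.02%, had no match in any of the 7 member windows. A match here is a run of letters and not a measured binding site.

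Total counts per library ran from 10624591 to 14388590, and mitochondrial genes took 1.243% to 2.529% of them. All 10 macrophage markers were present, with summed levels of 5380 to 11300 CPM (counts scaled to the TMM-adjusted library size) in KO with LPS/IFN-gamma, 4390 to 13700 in KO medium, 8940 to 18400 in WT with LPS/IFN-gamma and 8140 to 18700 in WT medium. None of the T or NK cell, B cell, fibroblast and epithelial markers was in the table; of 7 neutrophil markers only S100a8 was, at no more than 2.84 CPM. Of 6 dendritic cell markers 3 were present, summing to 9.74 to 12.4 CPM in KO with LPS/IFN-gamma against 1.12 to 2.16 in KO medium, and to 14.3 to 36.6 CPM in WT with LPS/IFN-gamma against 1.3 to 2.19 in WT medium. Of 5 mast cell markers only Kit was present, at 1.66 to 2.63 CPM in KO with LPS/IFN-gamma against 0 in KO medium, and at 0.38 to 3.38 CPM in WT with LPS/IFN-gamma against 0 to 0.0783 in WT medium. The part of these markers in the results was not tested, and in bulk RNA fewer cells expressing a gene and less RNA per cell cannot be told apart. Within groups, KO 1A and 1B were the most similar pair, with a chi-square per degree of freedom of 4.851 under stimulation and 6.742 in medium, against 26.161 to 79.979 for the other pairs. They still differed by more than counting noise, which does not show whether they are independent clones. They were kept separate as the labels name them. The members' calls, and the differences between genotypes of the other genes named, that end with their counts summed are given with that value.

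Per kilobase of exon, Tyrobp was the most abundant member in all 4 groups, at 414 ± 65.4, 508 ± 114, 663 ± 194 and 693 ± 178 CPM per kb in KO with LPS/IFN-gamma, KO medium, WT with LPS/IFN-gamma and WT medium (SD, n = 3 each). No library of any other member reached the Tyrobp range of its group. The adaptor's transcript thus stood above those of the other 8 members per length. After it under stimulation came Clec4e, Msr1, Clec4d and Clec7a, at means of 60.7 to 131 CPM per kb in KO and 136 to 185 in WT, and neighbours in this order overlapped between libraries. In medium the order after Tyrobp began with Clec4d, at 54.5 ± 39.9 CPM per kb in KO and 115 ± 54.8 in WT, followed by Trem2, at 40.7 ± 15.2 in KO and 71.6 ± 23.4 in WT. Exon length is the union over all annotated transcripts, 667 bases for Tyrobp, 1599 for Clec4d and 4946 for Trem2. The order of the members, and the size of the ratios per kilobase below, depend on it. By CPM alone, Tyrobp was not the first under stimulation. Its means of 276 in KO and 442 in WT lay below those of Clec4e (649 and 861) and Msr1 (548 and 1180). Likewise, Trem2 in medium had a higher mean CPM than Clec4d, at 201 against 87.1 in KO and 354 against 184 in WT. C3ar1 and C5ar1 stayed at means of 0.698 to 7.78 CPM per kb in all 4 groups. Mrc1 was the least abundant in 3 groups and overlapped C5ar1 in the fourth, WT with LPS/IFN-gamma, at 1.1 ± 0.526 CPM per kb.

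**Figure D1:**
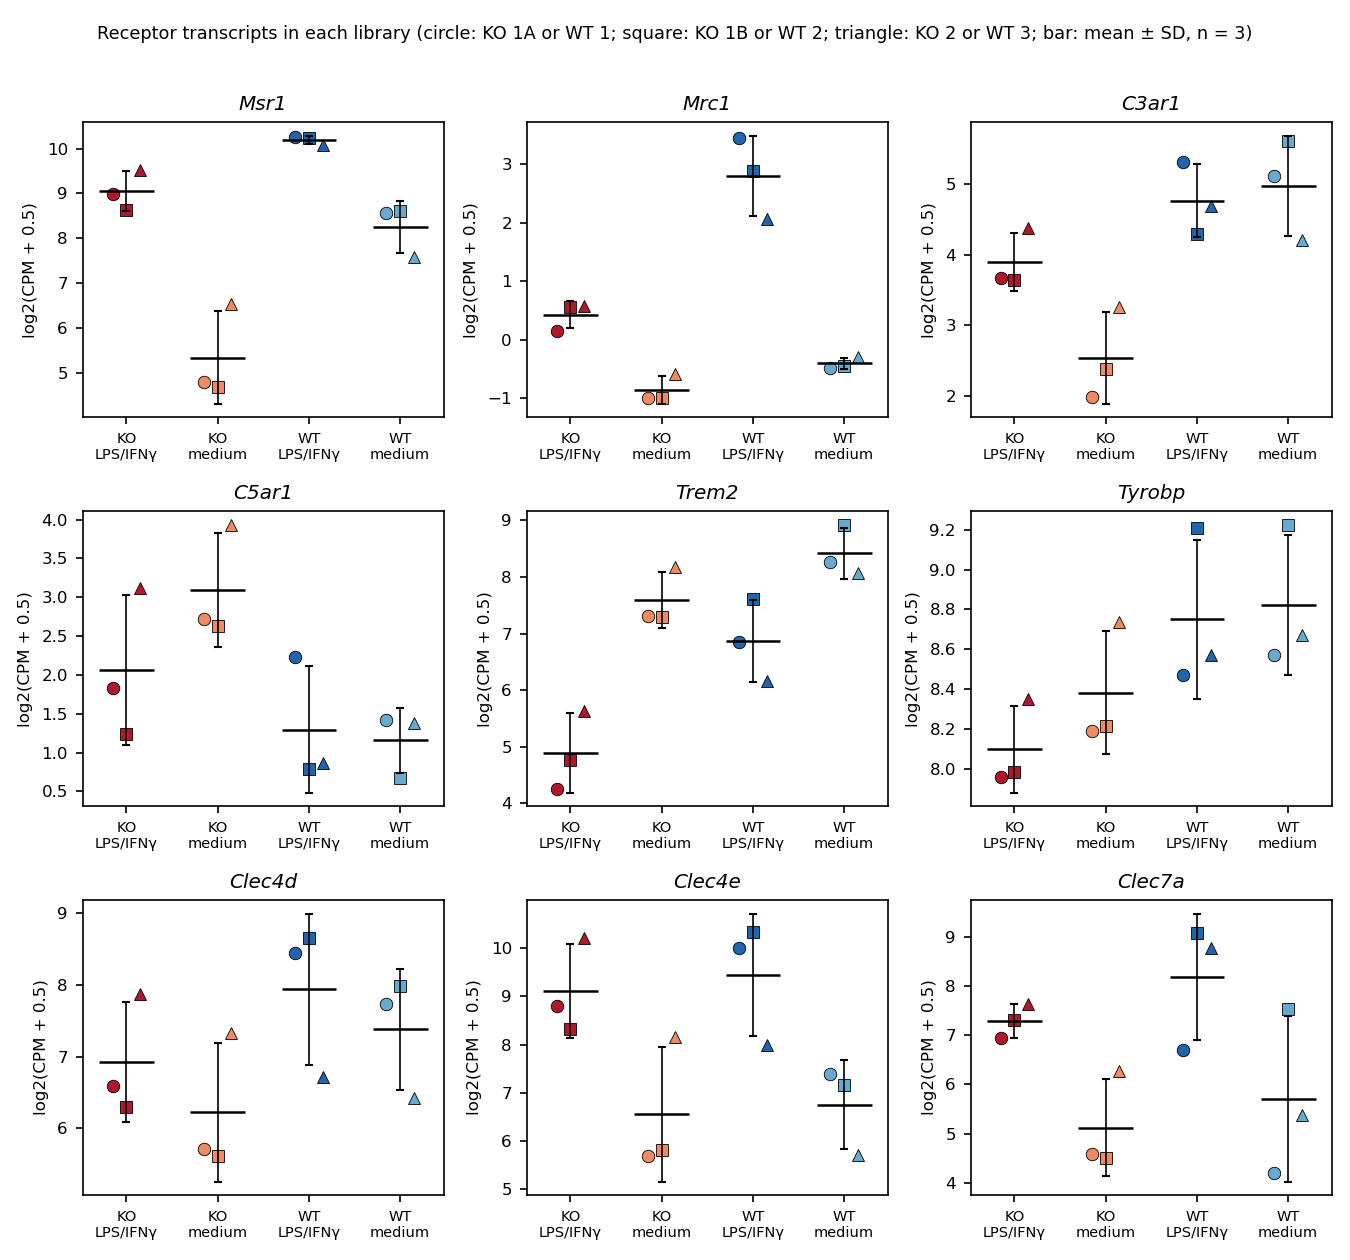
Level of each receptor transcript as log2(CPM + 0.5), 1 point per library, with group means and SD (n = 3). Msr1 and Mrc1 sit higher with LPS/IFN-gamma than in medium within both genotypes, Trem2 sits lower, and Tyrobp spans little; vertical scales differ between panels.

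LPS/IFN-gamma raised the transcripts of 4 members and lowered 1 in KO clones, at a Benjamini-Hochberg adjusted p below 0.05 in edgeR's quasi-likelihood test: Msr1, Mrc1, C3ar1 and Clec4e rose and Trem2 fell. Over all 12231 genes tested, 54.3% were called in KO clones, 26.7% higher and 27.6% lower, so shares this size were common. With KO 1A and 1B summed, or with library totals in place of TMM scaling, 2 members were called higher in KO clones. In WT clones 3 members rose (Msr1, Mrc1 and Clec4e) and Trem2 fell, where 47.4% of all genes were called, 23.8% higher and 23.6% lower. The members' median log2 fold change was 1.38 in KO and 0.63 in WT clones, against -0.01 over all genes in each. All 9 passed the filter on low counts, Mrc1 through the stimulated WT libraries alone. Since each clone gave both libraries, a fit with clone as a block compares within clones; in it all 9 members were called in KO clones, 6 higher and 3 lower, and 6 in WT clones, 5 higher and 1 lower. That fit called 66.1% of all genes in KO and 61.2% in WT clones. It counted KO 1A and 1B as separate clones and was not run with them summed.

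KO clones had lower Msr1 and C3ar1 than WT clones in medium, and lower Mrc1 and Trem2 under LPS/IFN-gamma. These were 2 of 9 members called lower in each condition and none called higher, where 1.21% of all genes were called in medium (0.858% lower, 0.352% higher) and 4.64% under stimulation (3.51% lower, 1.13% higher). Mrc1 was among the genes tested only through its level in the stimulated WT libraries. The members' median log2 fold change was -1.0 in medium and -1.06 under stimulation, against -0.01 and -0.02 over all genes. Summing KO 1A and 1B ended all 4 calls, with the number of genes called in all at 16 in medium and 73 under stimulation, against 148 and 567. With only the compared groups fitted, so that each clone entered once, 89 genes were called in medium and 96 under stimulation. Of the members, 0 were then called lower in medium and 1 under stimulation. The macrophage marker list had a median log2 fold change of -0.70 in medium, with 1 of 10 genes (Itgam) called lower, and of -0.86 under stimulation, with none called; its part in the members' differences was not tested. The medium comparison and the KO response share the KO medium libraries, as the stimulated comparison and the responses share the stimulated ones.

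No difference of the KO response from the WT response was called for any member or any of the 12231 genes (0% called), although 611 genes (5%) had an unadjusted p under 0.05. DESeq2 called 20 genes and the fit with clone as a block 40, with no member among them in either. Msr1 and C3ar1 were the members with an unadjusted edgeR p under 0.05, as given with each gene.

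**Figure D2:**
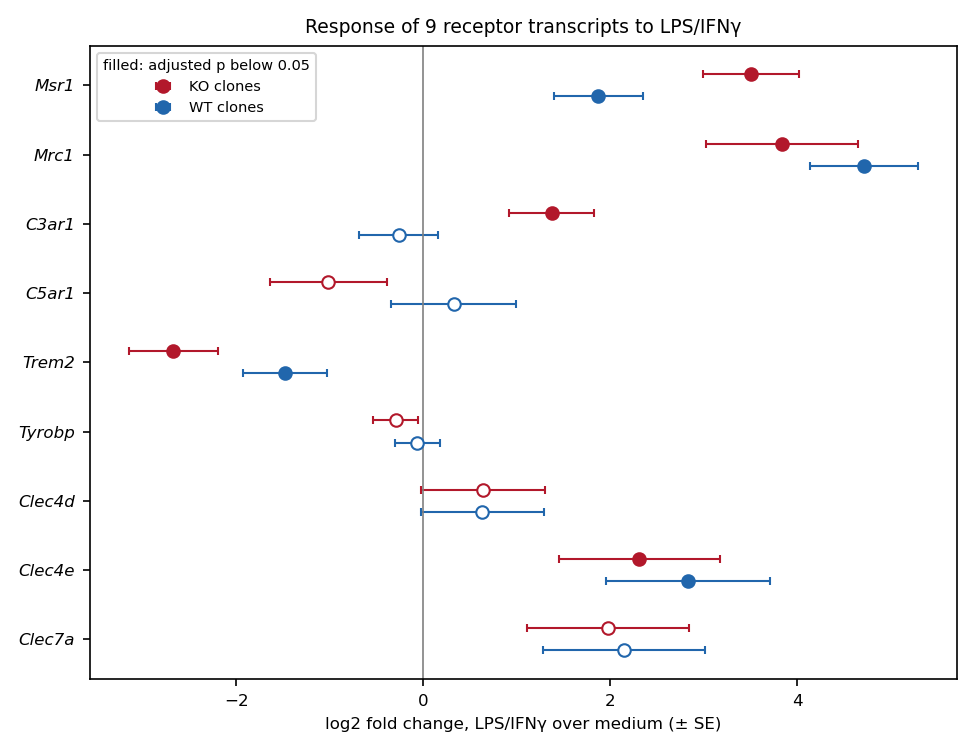
Log2 fold change of LPS/IFN-gamma over medium in KO clones (upper point of each pair) and WT clones (lower point), with SE; filled points have an adjusted p below 0.05 (edgeR). Msr1, Mrc1 and Clec4e are filled above 0 and Trem2 below 0 in both genotypes, while C3ar1 is filled in KO clones and open in WT clones, a difference that was not called.

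Msr1 encodes the class A scavenger receptor (SR-A), which binds modified low-density lipoprotein and bacterial surfaces. Under LPS/IFN-gamma its level was 511, 398 and 733 CPM in KO 1A, 1B and 2, against 27.5, 25.3 and 91.8 CPM in the same clones in medium. In WT 1, 2 and 3 it was 1230, 1200 and 1090 CPM with LPS/IFN-gamma, against 380, 390 and 192 CPM in medium. No stimulated library overlapped a medium library of its genotype, and KO lay below WT in both conditions without overlap. The response was 3.51 ± 0.52 on the log2 scale in KO clones (edgeR, adjusted p = 0.00027) and 1.87 ± 0.48 in WT clones (edgeR, adjusted p = 0.0089). The KO response exceeded the WT response by 1.63 ± 0.66, with an unadjusted p of 0.033 and an adjusted p of 0.94 in edgeR, so the difference was not called. In medium Msr1 was lower in KO than in WT clones by a log2 fold change of -2.74 ± 0.50 (edgeR, adjusted p = 0.031). Under stimulation the log2 fold change of KO over WT was -1.10 ± 0.47 (edgeR, adjusted p = 0.21). KO 2 held the highest Msr1 of the KO clones in both conditions, and with KO 1A and 1B summed the medium difference was -2.45 with an adjusted p of 0.21 in edgeR. The medium call also ended without KO 1A (-2.45, adjusted p = 0.26), KO 1B (-2.43, 0.19), WT 1 (-2.60, 0.085) or WT 2 (-2.58, 0.095) and with the medium groups fitted alone (-2.72, 0.14). Without KO 2 the difference under stimulation was called (-1.37, edgeR, adjusted p = 0.048).

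Mrc1 encodes the mannose receptor (CD206), a C-type lectin widely used as a marker of alternatively activated macrophages, and its counts were low. It had 6, 10 and 9 counts in stimulated KO 1A, 1B and 2, against 0, 0 and 2 counts in medium. In stimulated WT 1, 2 and 3 it had 114, 68 and 39 counts, against 3, 3 and 5 in medium. Stimulated libraries lay above medium libraries in both genotypes, and stimulated KO lay below stimulated WT, with no overlap. The 25 stimulated against 2 medium counts in KO give a ratio of 17.3, with a 95% counting interval of 4.31 to 151 (edgeR, adjusted p = 0.0022). Without KO 1B the ratio was 10.1 (2.35 to 91.1; edgeR, adjusted p = 0.026), and without KO 2 the 16 stimulated counts stood against 0, at least 7.5-fold higher with the medium libraries put at 3 counts in all (edgeR, adjusted p = 0.0037). In WT clones the log2 fold change was 4.72 ± 0.57 (edgeR, adjusted p = 8.4e-05). Under stimulation Mrc1 was lower in KO clones, at 0.859 ± 0.212 CPM, than in WT clones, at 7.0 ± 3.35 CPM (SD, n = 3 each), a log2 fold change of -3.01 ± 0.52 (edgeR, adjusted p = 0.012). With KO 1A and 1B summed this was -2.97, with an adjusted p of 0.11 in edgeR, and without KO 1A or KO 1B it was -2.82 (adjusted p = 0.12) or -3.12 (0.084). In medium the 2 counts in KO against 11 in WT give a ratio of 0.192 (95% counting interval 0.0207 to 0.882), which was not called (edgeR, adjusted p = 0.32). Such intervals cover counting error only. Mrc1 passed the count filter through the stimulated WT libraries alone, the high group of its WT response and of its stimulated difference. Without the filter that difference was -3.01 (edgeR, adjusted p = 0.012).

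Among 10 other scavenger receptors tested, 2 rose and 5 fell in KO clones and 2 rose and 3 fell in WT clones, with medians of -0.67 and -0.15 (log2). Colec12, a scavenger receptor with a collagen-like stalk, fell to 110 ± 44.4 CPM in KO clones with LPS/IFN-gamma, against 612 ± 265 in medium, and to 196 ± 49.2 CPM in WT clones, against 638 ± 45.3 in medium. Scarb1, a receptor for high-density lipoprotein, fell by 0.85 ± 0.11 in KO and by 1.01 ± 0.11 in WT clones on the log2 scale. Cxcl16, a scavenger receptor and chemokine, rose in both genotypes, and Lrp1, an endocytic receptor, fell in both, while Cd68 and Stab1 fell in KO clones; these 4 are named after their values were seen. Genes of this family were thus called in both directions. So were all genes tested, 26.7% higher and 27.6% lower in KO clones and 23.8% and 23.6% in WT clones. Between genotypes, 1.21% of all genes were called in medium and 4.64% under stimulation. The counts of the other lists below stand beside these same shares. Between genotypes 1 of the 10 was called, Scarb2, a lysosomal membrane protein, lower in stimulated KO than WT clones (-0.75 ± 0.16, edgeR, adjusted p = 0.028; 0.17 with KO 1A and 1B summed).

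Mrc1 is commonly read beside other genes of alternative activation, of which 6 were tested: 3 rose in KO and 4 in WT clones and none fell. The chemokine Ccl17 had 200 counts over the stimulated KO libraries and 0 in medium, at least 92.2-fold higher if the medium group is put at 3 counts in all, and 19 against 0 counts in WT clones, at least 8.62-fold higher. Between the stimulated groups Ccl17 was higher in KO clones, at 6.91 ± 1.33 CPM, than in WT clones, at 0.602 ± 0.631 CPM (log2 fold change 3.49 ± 0.64, edgeR, adjusted p = 0.032; 0.15 with KO 1A and 1B summed). Ccl17 and Mrc1 thus differed between stimulated KO and WT clones in opposite directions. Ccl17 was the only gene of the 6 called in that comparison. The list's median log2 fold change there was -1.08. A median below 0 was not particular to this list. Those of the other receptor and pathway lists given here ran from -2.3 to -0.03 in that comparison. Il4ra, the interleukin-4 receptor alpha chain, rose by 2.58 ± 0.66 in KO and by 3.63 ± 0.67 in WT clones (log2), and Tgm2, transglutaminase 2, by 4.06 ± 1 in WT clones. In KO clones Tgm2 stood at 10.4 ± 8.08 CPM, against 3.34 ± 0.763 in medium. The transcription factor Irf4 rose in both genotypes and is named after its values were seen. The list's median response was 2.77 in KO clones; in WT clones it was 3.84, or 3.37 with Ccl17 at its bound.

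C3ar1 encodes the receptor for the complement fragment C3a. Its level with LPS/IFN-gamma was 12.2, 12 and 20.2 CPM in KO 1A, 1B and 2, against 3.45, 4.67 and 9.04 CPM in medium. In WT 1, 2 and 3 it was 39.2, 19.1 and 25.3 CPM with LPS/IFN-gamma, against 34.2, 48.2 and 18.0 CPM in medium. Every stimulated KO library lay above every KO medium library, whereas the WT conditions overlapped: WT 1 and WT 3 were higher and WT 2 lower with LPS/IFN-gamma than in medium. C3ar1 rose by 1.38 ± 0.46 on the log2 scale in KO clones (edgeR, adjusted p = 0.026), and the WT log2 fold change was -0.26 ± 0.43 (edgeR, adjusted p = 0.64). The KO call ended with library totals (0.99, edgeR, adjusted p = 0.074), with KO 1A and 1B summed (1.32, edgeR, adjusted p = 0.095), without KO 1A (1.24, adjusted p = 0.11) and without KO 1B (1.38, adjusted p = 0.099). The difference between the responses was 1.64 ± 0.62, with an unadjusted p of 0.024 and an adjusted p of 0.89 in edgeR. In medium C3ar1 was lower in KO clones, at 5.72 ± 2.94 CPM, than in WT clones, at 33.5 ± 15.1 CPM (SD, n = 3 each; log2 fold change -2.55 ± 0.46, edgeR, adjusted p = 0.028). With KO 1A and 1B summed it was -2.38, with an adjusted p of 0.23 in edgeR. The call also ended without KO 1A (-2.29, adjusted p = 0.26), KO 1B (-2.42, 0.23), WT 1 (-2.54, 0.052) or WT 2 (-2.2, 0.06) and with the medium groups alone (-2.54, 0.094). Under stimulation the groups overlapped and the log2 fold change of KO over WT was -0.91 ± 0.44 (edgeR, adjusted p = 0.26).

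C5ar1 encodes the receptor for C5a, a strong chemoattractant. It was at 3.07, 1.86 and 8.21 CPM in stimulated KO 1A, 1B and 2, against 5.68 to 14.8 CPM in KO medium, and at 4.20, 1.22 and 1.33 CPM in stimulated WT 1, 2 and 3, against 1.10 to 2.17 CPM in WT medium. Each KO clone was lower with LPS/IFN-gamma than in medium, with differences of -1.39 to -0.81 on the log2(CPM + 0.5) scale, while WT 1 and WT 2 were higher and WT 3 lower. The KO response of -1.02 ± 0.63 was not called (edgeR, adjusted p = 0.19); with clone as a block it was -1.09 and called (edgeR, adjusted p = 0.0047). The WT response was 0.32 ± 0.67 (edgeR, adjusted p = 0.72), and the difference of the responses, -1.34 ± 0.92, was not called. In medium all 3 KO libraries lay above all 3 WT libraries, at 8.85 ± 5.16 against 1.79 ± 0.606 CPM. That log2 fold change of 2.29 ± 0.65 missed the threshold in edgeR (adjusted p = 0.13) and passed it in DESeq2 (2.30, adjusted p = 0.015). In medium the C3a and C5a receptor transcripts thus lay on opposite sides of WT in the KO clones, with C5ar1 at counts of 14 to 180 per library.

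Of 5 other complement receptor genes tested, 2 rose and 1 fell in KO clones and 3 rose and 1 fell in WT clones (medians 1.74 and 0.86, log2). Itgam and Itgb2, which together form complement receptor 3, rose in both: Itgam reached 92.7 ± 28 CPM in stimulated KO clones, against 22 ± 2.65 in medium, and 135 ± 26.6 CPM in stimulated WT clones, against 74 ± 17.9 in medium. Cr1l, a membrane inhibitor of complement, rose by 0.36 ± 0.09 in WT clones, and C5ar2, the second C5a receptor, fell in both genotypes (named after its values were seen). In KO clones Cr1l stood at 82.4 ± 4.14 CPM, against 71.3 ± 5.66 in medium. Itgam was also lower in KO than in WT clones in medium (log2 fold change -1.75 ± 0.26, edgeR, adjusted p = 0.0098; 0.12 with KO 1A and 1B summed). Of 11 complement components and regulators, 5 rose and none fell in each genotype, with medians of 1.35 in KO and 0.37 in WT clones. The precursor of the C3ar1 ligand, C3, rose to 9.11 ± 2.45 CPM in KO clones, against 0.127 ± 0.0522 in medium, and Cfb, factor B of the alternative pathway, to 61.6 ± 42.2 CPM, against 0.297 ± 0.391 in medium. In WT clones C3 stood at 12.1 ± 3.97 CPM, against 0.223 ± 0.218 in medium. Cfb stood there at 151 ± 59.1 CPM, against 1.1 ± 0.606 in medium. C2, a component of the classical pathway, rose to 62.2 ± 22.7 CPM in WT clones, against 1.34 ± 0.508 in medium. In KO clones C2 stood at 25.2 ± 16.9 CPM, against 1.01 ± 0.269 in medium. C1s1, a protease of the same pathway, had 560 against 2 counts in KO clones and 789 against 1 in WT clones, ratios of 387 (95% counting interval 107 to 3200) and 1070 (192 to 42400). C1ra, its partner protease, rose by 1.93 in KO and 2.22 in WT clones (log2). Between genotypes 1 of the 11 was called lower in KO clones in both conditions, Cd59a, an inhibitor of the membrane attack complex named after its values were seen, at 0.418 ± 0.194 CPM in KO against 2.86 ± 0.513 in WT clones under stimulation and 0.72 ± 0.0916 against 2.58 ± 1.11 CPM in medium. With KO 1A and 1B summed, Cd59a was called under stimulation only at the threshold (-2.7 on the log2 scale, edgeR, adjusted p = 0.05 after rounding). It was not called in medium (edgeR, adjusted p = 0.21).

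Of 20 genes for other chemoattractant receptors and their coupling, 11 rose and 6 fell in KO clones and 9 rose and 5 fell in WT clones, with medians of 0.50 and 0.47 (log2). With library totals in place of TMM scaling, which moved the median of all genes to -0.39 in KO and -0.37 in WT, these counts were 6 higher and 8 lower in each genotype. Gnai3, an inhibitory G protein alpha subunit used by such receptors, rose by 1.14 ± 0.10 in KO and 1.07 ± 0.10 in WT clones. Gng5, a G protein gamma subunit, rose by 1.29 ± 0.13 in KO clones, and Grk6, a receptor kinase, fell by 1.08 ± 0.12 in WT clones. Pik3cg, the PI3 kinase driven by G protein subunits, fell by 1.38 ± 0.14 in KO clones. Fpr2, a formyl peptide receptor, had 207 counts in stimulated WT clones and 0 in medium, at least 93.9-fold higher. The other genotype moved the same way for these 4 genes. In WT clones Gng5 stood at 28.7 ± 4.04 CPM, against 15.8 ± 0.999 in medium. Pik3cg stood there at 66.1 ± 11.5 CPM, against 137 ± 21.2 in medium. In KO clones Grk6 stood at 53.4 ± 4.08 CPM, against 112 ± 3.38 in medium. Fpr2 stood there at 8.97 ± 3.51 CPM, against 0 in medium. In stimulated cells 2 of the 20 were lower in KO than in WT clones, Plcb2 (-0.65 ± 0.14, edgeR, adjusted p = 0.03) and Pik3cg (-0.58 ± 0.14, edgeR, adjusted p = 0.044). Neither was called with KO 1A and 1B summed (edgeR, adjusted p = 0.18 and 0.24).

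**Figure D3:**
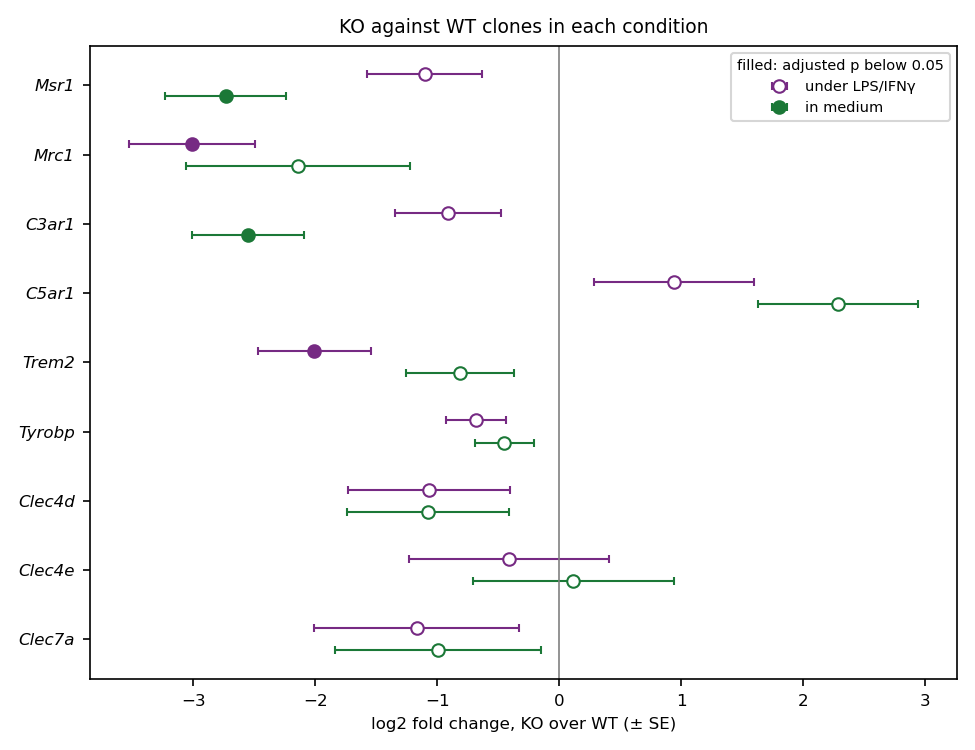
Log2 fold change of KO over WT clones under LPS/IFN-gamma (upper point of each pair) and in medium (lower point), with SE; filled points have an adjusted p below 0.05 (edgeR). Msr1 and C3ar1 are filled below 0 in medium and Mrc1 and Trem2 under LPS/IFN-gamma, while C5ar1 lies above 0 in both without being called.

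Trem2 encodes a lipid-sensing receptor of macrophages and microglia. Its level with LPS/IFN-gamma was 18.6, 26.8 and 49.4 CPM in KO 1A, 1B and 2, against 159, 156 and 288 CPM in medium. In WT 1, 2 and 3 it was 115, 195 and 71.2 CPM with LPS/IFN-gamma, against 309, 486 and 267 CPM in medium. All 6 clones were lower with LPS/IFN-gamma than in medium, without overlap within a genotype, and every stimulated KO library lay below every stimulated WT library. Trem2 fell by 2.67 ± 0.47 on the log2 scale in KO clones (edgeR, adjusted p = 0.00088) and by 1.48 ± 0.45 in WT clones (edgeR, adjusted p = 0.02). The WT call ended without WT 1 (-1.50, edgeR, adjusted p = 0.077) and without WT 3 (-1.36, adjusted p = 0.058). The difference of the responses, -1.20 ± 0.63, had an unadjusted p of 0.087 and an adjusted p of 1 in edgeR. Under stimulation Trem2 was lower in KO than in WT clones (log2 fold change -2.01 ± 0.47, edgeR, adjusted p = 0.039); with KO 1A and 1B summed this was -1.82, with an adjusted p of 0.22. That call also ended without KO 1A (-1.74, adjusted p = 0.24), KO 1B (-1.9, 0.21), WT 1 (-2.08, 0.077) or WT 2 (-1.55, 0.091) and with the stimulated groups alone (-2, 0.12). In medium the groups overlapped, with a log2 fold change of KO over WT of -0.81 ± 0.44 (edgeR, adjusted p = 0.46).

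Tyrobp, the adaptor, was at 249, 253 and 326 CPM in stimulated KO 1A, 1B and 2, against 292, 297 and 427 CPM in medium, and at 355, 591 and 380 CPM in stimulated WT 1, 2 and 3, against 380, 598 and 408 CPM in medium. Every clone was slightly lower with LPS/IFN-gamma than in medium, while the groups overlapped. The KO log2 fold change of -0.30 ± 0.24 was not called (edgeR, adjusted p = 0.33) but was with clone as a block (-0.28, edgeR, adjusted p = 0.008), and the WT value was -0.06 ± 0.24 (edgeR, adjusted p = 0.85). With library totals in place of TMM scaling the KO value was -0.68, with an adjusted p of 0.025 in edgeR. Stimulated KO libraries lay below stimulated WT libraries, yet the log2 fold change of -0.68 ± 0.25 missed the threshold (edgeR, adjusted p = 0.14). Per kilobase of exon, Trem2 stood at 0.0101 to 0.0204 of Tyrobp in stimulated KO clones, against 0.0709 to 0.0912 in KO medium, and at 0.0253 to 0.0445 in stimulated WT clones, against 0.0883 to 0.11 in WT medium.

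Of 8 other receptors listed as partners of TYROBP, 1 rose and 5 fell in KO clones and 2 rose and 4 fell in WT clones, with medians of -2.41 and -1.05 (log2). Cd300lb, an activating CD300 family receptor, fell to 63.3 ± 5.74 CPM in stimulated KO clones, against 176 ± 19.6 in medium, and to 138 ± 43.7 CPM in stimulated WT clones, against 261 ± 45.2 in medium. Sirpb1a, a signal-regulatory protein beta, had 0 counts in stimulated KO clones against 121 in medium, at least 29.2-fold lower. In WT clones it stood at 0.738 ± 0.166 CPM, against 5.13 ± 3.43 in medium. Cd300ld, of the CD300 family, fell by 2.01 ± 0.47 in KO clones (log2). In WT clones Cd300ld stood at 50.6 ± 22.8 CPM, against 124 ± 69 in medium. Clec5a, a lectin that signals through TYROBP, rose in WT clones, to 1100 ± 285 CPM against 692 ± 76.2 in medium, and was at 547 ± 70.9 CPM in stimulated KO clones, against 434 ± 108 in KO medium. Under stimulation Clec5a, Cd300lb and Sirpb1a were lower in KO than in WT clones: Clec5a by a log2 fold change of -1.0 ± 0.21 (edgeR, adjusted p = 0.026), Cd300lb by -1.12 ± 0.21 (adjusted p = 0.016), and Sirpb1a at 0 against 23 counts, at least 7.14-fold lower (adjusted p = 0.034). With KO 1A and 1B summed these 3 calls ended (edgeR, adjusted p = 0.17, 0.12 and 0.13). The list's median in that comparison was -2.30, or -1.06 with genes at 0 counts set to their bound. Of 8 TREM2 ligands and sheddases, 2 rose and 1 fell in each genotype (medians 0.44 in KO and 0.31 in WT clones, the WT median turning to -0.05 with library totals). Aph1a, a subunit of gamma-secretase, rose by 1.1 ± 0.15 in KO clones and by 0.9 ± 0.15 in WT clones (log2). Adam10, a protease that sheds TREM2 from the cell surface, fell to 95.3 ± 8.39 CPM in KO clones, against 258 ± 9.88 in medium, and to 101 ± 6.43 CPM in WT clones, against 201 ± 15.4 in medium.

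Clec4e encodes Mincle. Its level with LPS/IFN-gamma was 443, 320 and 1180 CPM in KO 1A, 1B and 2, against 50.7, 55.9 and 286 CPM in medium. In WT 1, 2 and 3 it was 1030, 1300 and 255 CPM with LPS/IFN-gamma, against 168, 143 and 51.6 CPM in medium. Stimulated and medium libraries did not overlap within either genotype, although KO 2 in medium lay above WT 3 with LPS/IFN-gamma. Clec4e rose by 2.31 ± 0.86 on the log2 scale in KO clones (edgeR, adjusted p = 0.042) and by 2.84 ± 0.88 in WT clones (edgeR, adjusted p = 0.022). Within clones the change was 2.05 to 3.11 in KO and 2.29 to 3.18 in WT on the log2(CPM + 0.5) scale. The KO call ended with KO 1A and 1B summed (2.21, edgeR, adjusted p = 0.12), with library totals (1.92, adjusted p = 0.069), with the KO libraries fitted alone (2.30, adjusted p = 0.056) and without KO 1A, KO 1B, WT 1 or WT 2 (2.14 to 2.31, adjusted p = 0.063 to 0.14). The WT call ended without WT 1 (3.00, edgeR, adjusted p = 0.07) or WT 2 (2.53, adjusted p = 0.12). KO and WT overlapped in both conditions, with log2 fold changes of 0.12 ± 0.82 in medium and -0.41 ± 0.82 under stimulation.

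Clec4d, encoding the related lectin MCL, was at 96.1, 78.5 and 234 CPM in stimulated KO 1A, 1B and 2, against 52.0, 48.5 and 161 CPM in medium, and at 347, 402 and 105 CPM in stimulated WT 1, 2 and 3, against 213, 253 and 85.1 CPM in medium. All 6 clones were higher with LPS/IFN-gamma than in medium, but the conditions overlapped across clones. The log2 fold changes of 0.64 ± 0.66 in KO (edgeR, adjusted p = 0.43) and 0.63 ± 0.66 in WT (edgeR, adjusted p = 0.46) were not called; with clone as a block they were 0.70 (edgeR, adjusted p = 0.00028) and 0.56 (adjusted p = 0.0012). Clec4e per kilobase stood at 1.31 to 1.63 of Clec4d in stimulated KO clones, against 0.314 to 0.573 in KO medium, and at 0.783 to 1.04 in stimulated WT clones, against 0.182 to 0.254 in WT medium. The neighbouring genes thus changed unequally in all 6 clones, and the ratio was higher in every KO library than in every WT library of the same condition. That genotype difference was noticed in the data and was not tested. KO against WT was not called for Clec4d, at -1.08 ± 0.67 in medium and -1.07 ± 0.67 under stimulation on the log2 scale.

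**Figure D4:**
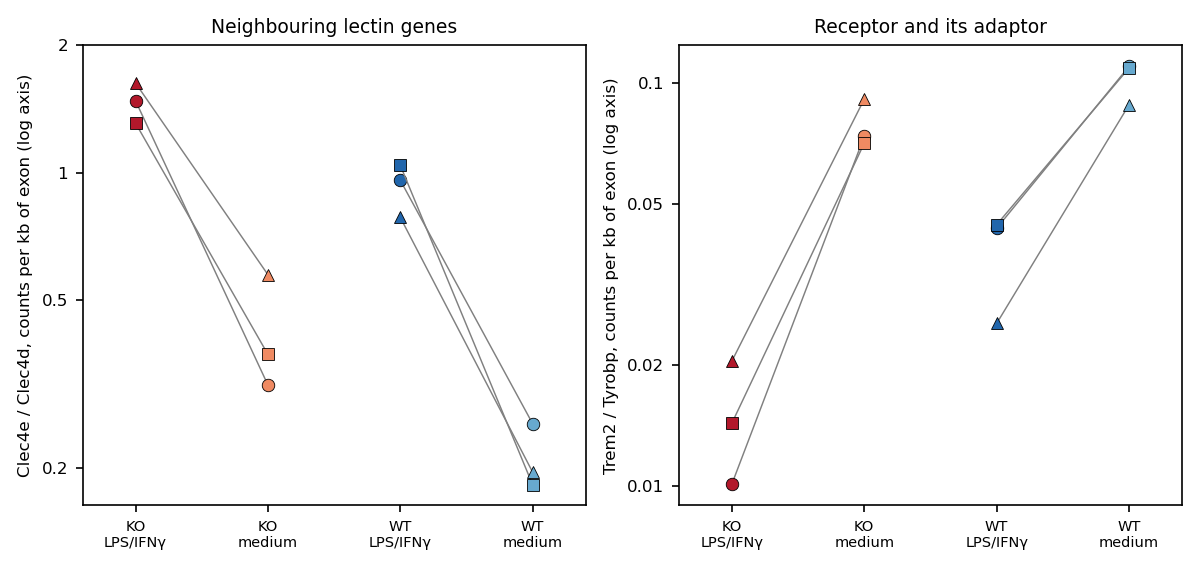
Left, Clec4e over Clec4d, and right, Trem2 over Tyrobp, as ratios of counts per kilobase of exon on log axes, 1 point per library, lines joining the 2 libraries of a clone (circle KO 1A or WT 1, square KO 1B or WT 2, triangle KO 2 or WT 3). With LPS/IFN-gamma the first ratio is higher and the second lower than in medium in all 6 clones.

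Clec7a encodes Dectin-1, the receptor for fungal beta-glucan. It was at 123, 158 and 199 CPM in stimulated KO 1A, 1B and 2, against 23.7, 22.2 and 76.4 CPM in medium. In WT 1, 2 and 3 it was 104, 539 and 437 CPM with LPS/IFN-gamma, against 18.0, 184 and 41.4 CPM in medium. Every clone was higher with LPS/IFN-gamma, the KO conditions did not overlap, and in WT the medium library of clone 2 lay above the stimulated library of clone 1. The log2 fold changes of 1.98 ± 0.87 in KO (edgeR, adjusted p = 0.077) and 2.15 ± 0.87 in WT (edgeR, adjusted p = 0.063) missed the threshold, and with clone as a block they were 2.18 (edgeR, adjusted p = 0.0044) and 2.48 (adjusted p = 0.0029). DESeq2 without a block called both, at 2 (adjusted p = 0.043) and 2.16 (adjusted p = 0.031). In edgeR the KO response was also called without WT 1 (1.98, adjusted p = 0.026) or WT 2 (1.97, 0.035) and with the KO libraries alone (1.97, 0.016), and the WT response without WT 2 (3.16, 0.02). WT medium showed the widest spread of this gene, with a coefficient of variation of 111%. KO against WT was not called, at -1.0 ± 0.85 in medium and -1.17 ± 0.84 under stimulation on the log2 scale.

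Of 10 other C-type lectins tested, 4 rose and 1 fell in KO clones and 5 rose and none fell in WT clones (medians 1.07 and 0.86, log2). Clec2d, a ligand of an inhibitory natural killer cell receptor, rose to 73.3 ± 4.2 CPM in KO clones, against 0.53 ± 0.251 in medium, and to 71.5 ± 21.8 CPM in WT clones, against 0.688 ± 0.48 in medium. Clec9a, a lectin of dendritic cells that was also on the dendritic cell marker list, rose by 4.28 in KO and 4.48 in WT clones, and Clec4a3 was the gene that fell in KO clones (log2 fold change -2.76, edgeR, adjusted p = 0.036); both are named after their values were seen. Clec4n, encoding Dectin-2, rose by 5.26 ± 1.44 in KO and by 3.8 ± 1.18 in WT clones on the log2 scale. Cd69, an early activation marker of lymphocytes, had 319 against 1 count in KO clones and 353 against 1 in WT clones, ratios of 441 (95% counting interval 78.6 to 17500) and 480 (85.6 to 19000). Of 26 genes of the ITAM and CARD9 route, 12 rose and 6 fell in KO clones and 10 rose and 5 fell in WT clones, with medians of 0.28 and 0.42; with library totals 9 rose and 8 fell in each, and the KO median turned to -0.10. The adaptor Lcp2 rose by 2.93 ± 0.17 in KO and 2.50 ± 0.17 in WT clones, the Src family kinase Lyn by 2.38 ± 0.16 and 1.78 ± 0.15, and Bcl10, the partner of CARD9, by 1.33 ± 0.14 and 1.07 ± 0.14. None of the 26 was called higher in KO than in WT clones. In medium 3 were lower, among them Fcer1g, the adaptor of Mincle, at 65.4 ± 14.2 CPM in KO against 217 ± 106 in WT clones, and the membrane adaptor Lat2, at 72.4 ± 15 against 221 ± 37.9 CPM (edgeR, adjusted p = 0.032 and 0.028; 0.26 and 0.2 with KO 1A and 1B summed). Under stimulation 2 were lower, Lat2 at 21.1 ± 5.37 CPM in KO against 142 ± 57.7 in WT clones and Malt1, the third member of the CARD9 complex, at 37.6 ± 8.71 against 170 ± 133 CPM (edgeR, adjusted p = 0.0016 and 0.032). With KO 1A and 1B summed, Lat2 was still called under stimulation (edgeR, adjusted p = 0.024) and Malt1 was not (0.21).

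The genes whose levels followed each member most closely over the 12 libraries are given by Pearson's r of log2(CPM + 0.5) as a description, since all points share the same libraries, clones and treatment. Trem2 was followed by Nfam1 (0.983) and Abcb4 (0.98), Clec4e by Cebpb (0.979) and Tgif1 (0.961), and Msr1 by Ccl9 (0.977) and Ndfip2 (0.97). Clec7a was followed by Alpk1 (0.975) and Nckap1l (0.949), Tyrobp by Qsox1 (0.971) and Gm2a (0.965), and Clec4d by Nckap1 (0.963) and Mdfic (0.944). Mrc1 was followed by Cd82 and Coro7 (0.961 each), C3ar1 by Fyb (0.958) and Chp1 (0.913), and C5ar1 by Dhx36 (0.872). No member was among the 2 closest genes of any other.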

How the data were processed

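The authors deposited 1 table of gene counts, whole numbers per Ensembl gene for all 12 libraries. Per the submitters' processing notes the genome was mm10 (GRCm38) and DESeq2 was used in a role they leave unnamed; the aligner, the counter and strand handling are not given in the sources. Names, positions and exon lengths (union over transcripts) came from GENCODE M21, which named 12305 of 12483 IDs, and promoter windows from RefSeq.

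The counts were tested with edgeR 4.0.16 in R 4.3.3: filterByExpr (minimum count 10) kept 12231 genes and left out 252, libraries were scaled by TMM, and robust quasi-likelihood models took 1 mean per group over all 12 libraries (8 residual degrees of freedom, common coefficient of variation 23.6%). Benjamini-Hochberg adjustment ran over all genes tested, with calls below 0.05. SE is log2 fold change over the root of the F statistic. P-values of this fit measure the spread between the libraries of a group, with KO 1A and 1B counted separately. Each clone entered it with 1 library per condition. The 8 residual degrees of freedom count these paired libraries as independent, which matters for the genotype comparisons. P-values of the fit with clone as a block measure the spread within clones. Intervals are 95% exact binomial; a group at 0 was put at 3 counts in total for lower bounds of a fold.

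Libraries of 1 clone are paired by the labels. Their deviations from the group means correlated at 0.35, 0.32 and 0.53 for KO 1A, 1B and 2 and at 0.63, 0.69 and 0.62 for WT 1, 2 and 3. The highest correlation of a medium library with the stimulated library of another clone of its genotype was 0.32, 0.2 and -0.37 for these KO clones. For the WT clones it was -0.21, -0.37 and -0.11. The blocked fit left 4 residual degrees of freedom. Other alternatives were RLE size factors, library totals, no filter, DESeq2 1.42.0, the compared groups alone, KO 1A and 1B summed, and leaving out each clone.

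All members are named; from each list, up to 3 called genes with the smallest p and at least 5 CPM in 1 group; for likeness, the 2 protein-coding genes of highest r. The members and lists were chosen with earlier results of these data known. A few genes that this rule names are not reported here.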

Additional observations from a re-analysis of the deposited data

How the results depend on the processing

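Over the 9 members and 5 comparisons, 489 of the recomputed log2 fold changes kept their direction and side of the threshold, 15 passed it newly, 36 no longer passed it and 16 changed sign, all 16 for members not called in that comparison. Msr1 was called higher in both responses under every alternative run, at 3.13 to 4.11 in KO and 1.52 to 2 in WT clones. Mrc1 passed the count filter of the main fit through the stimulated WT libraries alone, the group in which it was highest. In the settings that tested it, Mrc1 was called higher in both responses. The values were 4.21 to 5.2 in WT clones and 3.17 (without KO 1B) to 6.3 (without KO 2) in KO clones. With the KO libraries fitted alone the count filter left it out of the KO response.

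The count of members called higher in the KO response, 4, was 2 with library totals, 2 with KO 1A and 1B summed and 2 to 4 leaving out 1 clone; the count called lower, 1, was 2 with library totals and 3 with clone as a replicate block. In the WT response the block gave 5 higher against 3. All genes called in the KO and WT responses, 6638 and 5796, were 8082 and 7485 with the block and 7313 and 6826 with library totals. Leaving out 1 clone gave 0 to 1 lower in the WT response. Members lower in KO than WT clones in medium, 2, were 0 with the 2 groups fitted alone, 0 with KO 1A and 1B summed and 0 to 2 leaving out 1 clone, and DESeq2 called 1 higher. Under stimulation, 2 were 1, 0 and 0 to 3 in the same settings. Genes called in medium, 148, were 89 in the 2 groups alone, 622 with DESeq2, 16 summed and 14 (without KO 1A) to 419 (without WT 3) leaving out 1 clone, with 24 without KO 1B; under stimulation, 567 were 96, 1177, 73 and 48 (without KO 1A) to 972 (without WT 3), with 69 without KO 1B and 287 without KO 2. For the difference of the responses, 0 calls became 40 with the block, 20 with DESeq2 and 0 to 4 leaving out 1 clone. The cause of these shifts was not tested.

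Leaving out 1 clone, uncalled values ranged across 0 for the WT responses of C3ar1 (-0.58 to 0.29) and C5ar1 (-0.35 to 0.73; -0.03 with library totals), for KO against WT in medium of Clec4e (-1.18 to 0.5) and Clec7a (-1.82 to 0.44), for Clec4e under stimulation (-1.17 to 0.02), and for the difference of the responses of Mrc1 (-1.54 to 1.59), Clec4d (-0.06 to 0.16; -0.03 with library totals, -0.02 summed), Clec4e (-0.7 to 0) and Clec7a (-1.19 to 0.47). The block changed the member calls given with each gene and no other. The coefficient of variation of 23.6% is common to all genes. Between libraries of a group it reached 103% for Clec4e in KO medium and 111% for Clec7a in WT medium. With 3 clones a group and Mrc1 at 0 to 10 counts in KO libraries, differences of several fold could be missed. The Clec7a responses, 3.94-fold in KO and 4.44-fold in WT clones, were not called in edgeR. Nor was the 4.88-fold C5ar1 difference in medium, so a value not called does not show that nothing changed.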
